A study of Mus musculus with 4 samples.

Results

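Respiratory chain genes encode the protein machinery of oxidative phosphorylation. The 55 genes described here were taken by name, 42 of them from the nuclear genome and 13 from the mitochondrial genome, out of 35905 genes in the tables. They cover complex I (15 nuclear and 7 mitochondrial genes), complex II (4 nuclear genes), complex III (6 nuclear genes and 1 mitochondrial gene), the soluble carrier cytochrome c (1 nuclear gene), complex IV (9 nuclear and 3 mitochondrial genes) and complex V (7 nuclear and 2 mitochondrial genes). All 55 were found and all 55 had enough counts to be tested.

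Complexes I to IV sit in the inner mitochondrial membrane and pass electrons from NADH and succinate to oxygen. Complexes I, III and IV pump protons while they do so, and complex V, the ATP synthase, uses the proton gradient to make ATP. Complexes I, III, IV and V are built from subunits of both genomes, whereas complex II is wholly nuclear. The chain thus needs transcription in the nucleus and in the organelle. All of the mitochondrial protein-coding genes but mt-Nd6 are transcribed from the heavy-strand promoter as one long precursor that is cut into separate mRNAs.

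RNA was measured by poly-A sequencing of Lewis lung carcinoma (LLC) cells, a single mouse lung cancer line, grown as subcutaneous flank tumours in C57BL/6 hosts and collected after 4 weeks. Cells carrying TdTomato and lacking the leukocyte antigen CD45 were sorted from digested tumours. WT hosts (2 libraries) were Mrp8Cre-, Padi4fl/fl and PAD4-DN hosts (2 libraries) were Mrp8Cre+, Padi4fl/fl, so hosts of both groups carried the floxed Padi4 allele and differed in Mrp8Cre, a driver active in neutrophils, while the sorted cancer cells were the same line in both. The comparison asks how loss of Padi4 in host neutrophils bears on the tumour cells. The labels do not say whether replicates were separate animals. Each p-value therefore covers the spread among these 4 libraries alone, which may be technical.

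The libraries held 20036322 to 25327974 estimated counts. Padi4 itself was at 0, 2, 6 and 0 counts (WT replicates 1 and 2, then PAD4-DN replicates 1 and 2); the deletion is in host cells, so these values do not check it. Of 6 lung epithelial markers, Krt8 (131 to 178 TPM) and Krt18 (184 to 227 TPM) were present, Epcam, Cdh1 and Nkx2-1 were under 1 TPM and Sftpc was listed at 0. All 7 leukocyte markers were detected, with a summed level of 13.6 and 17.3 TPM in WT and 32.5 and 5.39 TPM in PAD4-DN; none was at 0 over all libraries, and Ptprc, which encodes CD45, was at 0.324 to 1.88 TPM. The 8 macrophage markers summed to 46.9, 52.1, 98.1 and 13.3 TPM, the 7 neutrophil markers to 47.4, 7.54, 66.6 and 13.7 TPM, the 7 fibroblast markers to 4342, 4814, 6854 and 4387 TPM, most of it Col3a1, and the 5 erythroid markers to 134, 15.2, 501 and 12.01 TPM, in the same order. All of these sums were highest in PAD4-DN replicate 1, and PAD4-DN replicate 2 was the lowest for leukocyte, macrophage and erythroid markers. The fibroblast markers did not move together: Col1a1 was at 3.67, 127, 161 and 4.14 TPM and Col1a2 at 0.421, 108, 129 and 1.24 TPM, whereas Lum (251, 273, 219 and 430 TPM) and Dcn (840, 692, 911 and 961 TPM) were highest in PAD4-DN replicate 2. In bulk RNA, fewer cells of a type and less RNA per cell cannot be told apart.

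PAD4-DN replicate 2 also stood apart in how reads were divided between 3 mitochondrial genes and near-identical nuclear pseudogenes, and in mt-Atp8. Values without it, or without another library, follow beside the gene or with the processing alternatives, where leaving it out moved a printed fold change by over 1.5 times. In the order used throughout, the 4 values of a gene are WT replicate 1, WT replicate 2, PAD4-DN replicate 1 and PAD4-DN replicate 2.

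The sequences bear on the mitochondrial results in 2 ways, through copies in the nuclear genome and through overlapping reading frames. Of the 13 mitochondrial genes, 7 have a pseudogene in the nuclear genome of which at least 95% of the 31-base words also occur in the mitochondrial transcript. These words are the length kallisto matches by default, and the setting used by the authors is not given in the sources used here. The copies of mt-Nd4 (Gm28439, 876 bases), mt-Nd4l (Gm10222, 294 bases), mt-Co2 (Gm28661, 681 bases), mt-Co3 (Gm28437, 783 bases) and mt-Atp6 (Gm10925, 678 bases) had 0 differences from the mitochondrial transcript over their length. The copy of mt-Co1 (Gm29216) differed at 6 of 492 bases. The copy of mt-Nd3 (Gm28438) differed at 1 of 345 bases, T3C, counted from the first base of mt-Nd3, with the mitochondrial base first. The first 40 bases of mt-Nd3 and of its copy in GENCODE M21 transcripts are shown because this single base, in capitals, is all that separates them over the copy's length.
mt-Nd3: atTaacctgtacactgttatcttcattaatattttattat
Gm28438: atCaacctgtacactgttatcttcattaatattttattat

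The mt-Atp8 transcript is 204 bases long and its last 43 bases, in capitals, are also the first 43 bases of mt-Atp6. It is shown whole because reads from the shared stretch can be counted for either gene.
mt-Atp8: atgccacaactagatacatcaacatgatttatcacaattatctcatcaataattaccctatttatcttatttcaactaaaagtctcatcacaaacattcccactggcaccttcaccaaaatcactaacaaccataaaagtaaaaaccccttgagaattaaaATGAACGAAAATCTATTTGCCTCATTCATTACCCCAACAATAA

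The 13 mitochondrial genes were the 13 most abundant of the 55 in TPM, a unit scaled for transcript length and for the total of the library. Their mean TPM ran from 1353 for mt-Nd3 to 34881 for mt-Co1, with a median of 9844. These values leave out the nuclear copies. That of mt-Nd3 had a mean of 3273 TPM, above the 2548 TPM of mt-Nd5. The place of mt-Nd3 as the lowest thus rests on how kallisto divided reads between gene and copy. The 42 nuclear genes ran from 34.8 TPM for Cycs, cytochrome c, to 810 TPM for Atp5f1b, the catalytic beta subunit of ATP synthase, with a median of 107. Per complex, the median of the mean TPM of nuclear members was 92.6 for complex I, 111 for complex II, 96.0 for complex III, 212 for complex IV and 331 for complex V. Complex V had the widest span, 10.02-fold between Atp5mc1 (80.8 TPM) and Atp5f1b, and complex II the narrowest, 1.52-fold over its 4 genes.

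**Figure D1:**
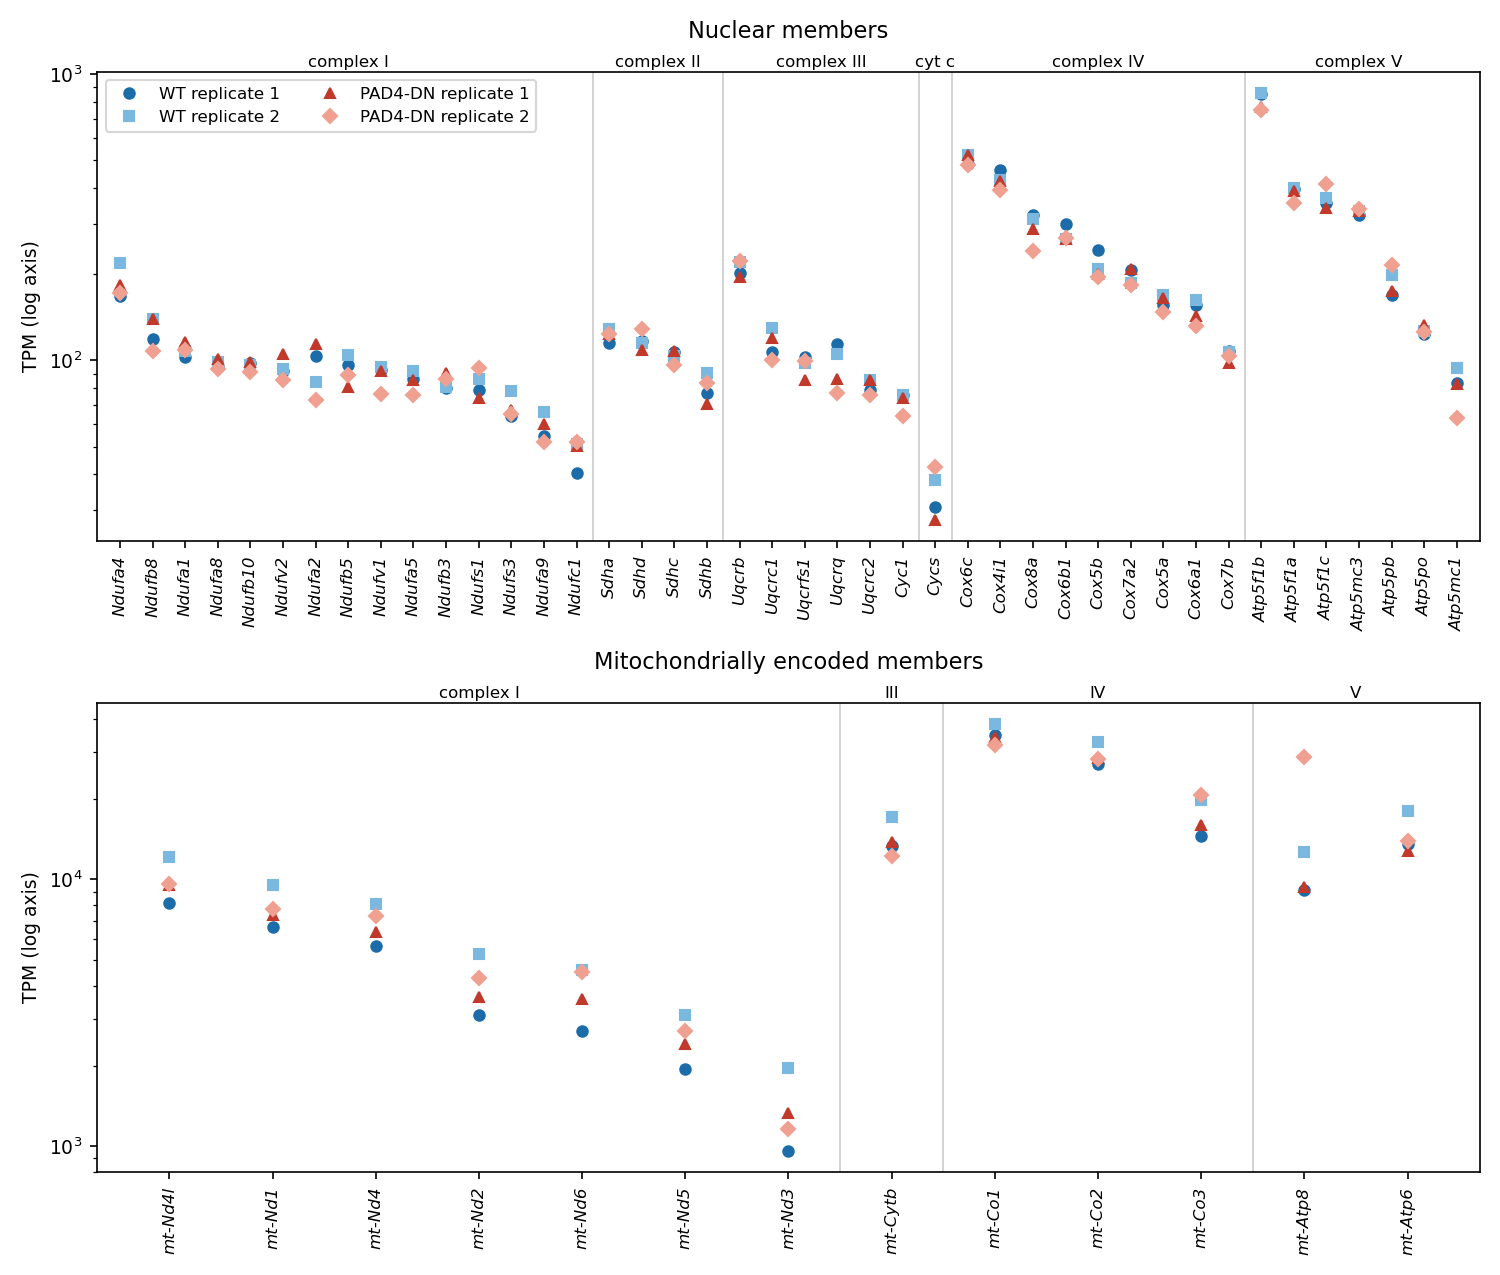
TPM on a log axis of the 42 nuclear (top) and 13 mitochondrial (bottom) respiratory chain genes, ordered by complex and mean level; each symbol is 1 library. Nuclear genes lie between the 34.8 TPM of Cycs and the 810 TPM of Atp5f1b as means. Counted without the nuclear copies, the lowest mitochondrial gene is mt-Nd3, with a mean of 1353 TPM.

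Where a subunit exists in a broadly expressed and a tissue-restricted form, the broad form carried the level. Cox4i2, Cox8b, Cox8c and Cyct (the testis cytochrome c) were listed at 0 in all 4 libraries, and 7 of 9 such isoform genes stayed under 1 TPM throughout. Cox7a1, the heart and muscle form, was at 1.91, 2.00, 3.18 and 1.32 TPM, against 183 to 209 TPM for Cox7a2. The identical c subunit of the ATP synthase ring comes from 3 genes, and Atp5mc3 gave 75.9%, 74.6%, 75.3% and 80.9% of their summed TPM. The share of Atp5mc1 was 19.7%, 21.1%, 18.8% and 15.1%, and that of Atp5mc2 was 3.998% to 5.87%.

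In PAD4-DN compared with WT, none of the 55 genes passed the threshold of 0.05 with edgeR's quasi-likelihood test and Benjamini-Hochberg adjustment over 13718 genes; the smallest adjusted p among them was 0.988. Of the 55, 2 (Uqcrq and Cox8a) had an unadjusted p under 0.05, both lower in PAD4-DN, beside 1.42% of all genes lower and 1.23% higher at that p. Over all genes 0% were called, 364 genes (2.65%) had an unadjusted p under 0.05, and 11 genes were called by DESeq2 and 0 by limma-voom, none of them a respiratory chain gene. In simulated data the same procedure called 2.67% of genes changed 1.5-fold, so the lack of calls does not show a lack of change. What follows therefore describes levels and the order of the libraries.

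The nuclear genes lay slightly below WT in most cases. Of 42, 39 had a log2 fold change (PAD4-DN minus WT) below 0, beside 48.5% of all genes tested, and their median was −0.13, beside 0.01 for all genes. In 23 of 42 (54.8%) both PAD4-DN libraries were below both WT libraries in CPM, beside 17.4% of all genes, and in 1 (Ndufc1) both were above, beside 15.4%. Abundant genes and short genes as a whole leaned the same way: of the 2591 genes with a mean of at least 50 TPM, 27.3% were lower in both PAD4-DN libraries, with a median log2 fold change of −0.04, and of the 1467 genes under 1000 bases 24.9% were, with a median of −0.08. On the TPM scale the count was 13 of 42 (31%), beside 11.1% of all genes. On that scale 3 of 42 were higher in both, beside 22.3%, and 29 of 42 had a difference below 0, beside 38.2%. There the median was −0.06 for the nuclear genes and 0.06 for all genes. PAD4-DN replicate 2 was the lowest library for 25 of the 42 and PAD4-DN replicate 1 for 14, while WT replicate 1 was the lowest for 0. These 2 PAD4-DN libraries were at opposite ends of the leukocyte and macrophage marker sums given above; the part of other cell types in these levels was not tested.

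**Figure D2:**
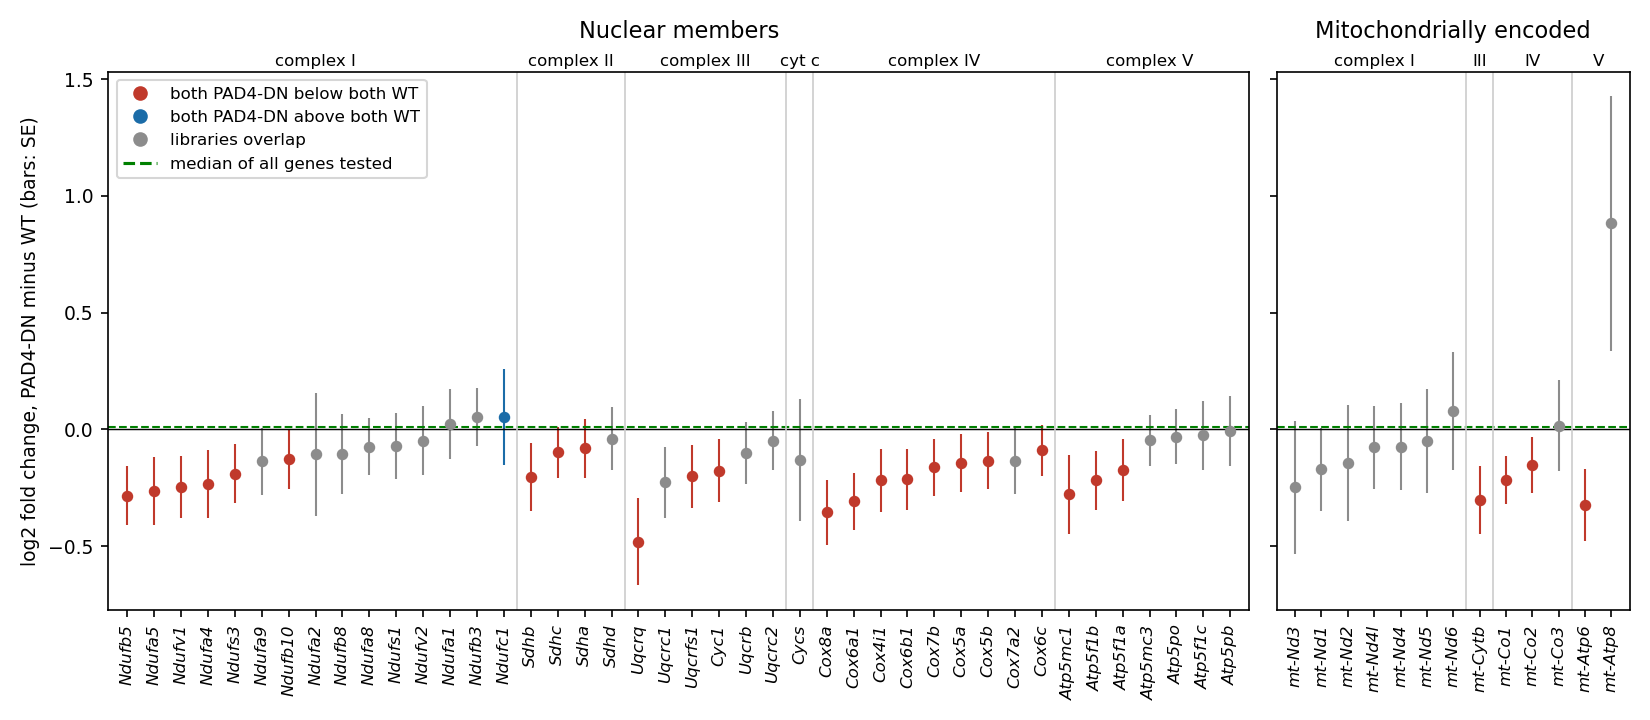
Log2 fold change (PAD4-DN minus WT, edgeR on counts) with its standard error for each respiratory chain gene, by genome and complex; red marks genes with both PAD4-DN libraries below both WT libraries, blue the reverse, grey overlap, and the dashed line is the median of all genes tested (0.01). Of the nuclear genes 39 of 42 lie below 0, and mt-Atp8 stands alone at 0.88.

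Complex I takes electrons from NADH and is the largest of the complexes. The median log2 fold change of its 15 nuclear genes was −0.11, and 12 were below 0 (80%, beside 48.5% of all genes). In 6 both PAD4-DN libraries were below both WT libraries (40%, beside 17.4% of all genes). In 1 both were above, beside 15.4% of all genes. Ndufb5, an accessory subunit of the membrane arm, was at 39.7, 40.6, 31.4 and 34.5 CPM. Both PAD4-DN libraries were below both WT libraries, and the log2 fold change was −0.28 (SE 0.13). Ndufv1, the NADH-binding flavoprotein of the peripheral arm, was at 87.2, 83.7, 78.1 and 65.9 CPM. Its groups did not overlap either, with PAD4-DN replicate 2 the furthest down, and the log2 fold change was −0.25 (SE 0.13), or −0.13 without PAD4-DN replicate 2 and −0.38 without PAD4-DN replicate 1. The partner of Ndufv1 in the same module, Ndufv2, was at 54.9, 53.8, 58.1 and 47.0 CPM, with the PAD4-DN libraries on either side of WT. The large iron-sulphur subunit Ndufs1 was at 133, 133, 114 and 139 CPM and overlapped likewise. Ndufs3, a core subunit of the peripheral arm, was at 38.6, 43.1, 36.2 and 35.4 CPM, lower in both PAD4-DN libraries. Of the 31-base words of its main transcript 55% also occur in transcripts of 3 other genes, of which Kbtbd4 was the most abundant (mean 12.8 TPM). Ndufc1, the gene that was higher in both, was at 8.40, 8.25, 8.69 and 8.59 CPM, differences of a few percent. Ndufa4, which carries a complex I name although its protein was later assigned to complex IV, was at 44.8, 54.2, 43.6 and 40.6 CPM, with both PAD4-DN libraries the lowest.

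The 7 mitochondrial genes of complex I, which encode the proton-pumping membrane core, lay in another order. In all 7, WT replicate 1 was the lowest and WT replicate 2 the highest, so both PAD4-DN libraries lay between the WT libraries. With either WT library the higher, both PAD4-DN libraries lay between them in 11.5% of all genes tested and in 0 of the 42 nuclear genes. The 7 genes come from one organelle transcript pool and, except for mt-Nd6, one strand, so they are not 7 separate observations. mt-Nd1 was at 3712, 5021, 3760 and 4001 CPM (log2 fold change −0.17, SE 0.18), and mt-Nd2 at 1922, 3069, 2064 and 2453 CPM (−0.14, SE 0.25). The WT libraries thus differed more from each other than the group means did. mt-Nd4 was at 4955, 6754, 5162 and 5964 CPM (−0.07, SE 0.19) and mt-Nd4l at 655, 862, 696 and 742 CPM (−0.08, SE 0.18); the reading frames of this pair overlap by 7 bases. mt-Nd5 was at 2378, 3626, 2734 and 3064 CPM (−0.05, SE 0.22). mt-Nd6, the light-strand gene, was at 615, 950, 723 and 930 CPM (0.08, SE 0.25); the strand setting of the counting is not given in the sources used here, so its reads and those of the opposite strand cannot be told apart. mt-Nd3 was at 105, 192, 131 and 120 CPM (−0.25, SE 0.28). Each of these 7 overlapped between genotypes. Without WT replicate 2, each of the 6 log2 fold changes below 0 turned positive, from 0.06 for mt-Nd1 to 0.28 for mt-Nd5.

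Complex II, succinate dehydrogenase, also works in the citric acid cycle and has no mitochondrially encoded subunit. All 4 genes had a log2 fold change below 0, with a median of −0.09. In 3 both PAD4-DN libraries were below both WT libraries (75%, beside 17.4% of all genes). Sdhb, the iron-sulphur subunit, was at 54.0, 60.0, 45.2 and 53.7 CPM. PAD4-DN replicate 2 was only just below WT replicate 1, and the log2 fold change was −0.20 (SE 0.14), or −0.09 without PAD4-DN replicate 1, −0.13 without WT replicate 2, and −0.34 when PAD4-DN replicate 2 was left out. Sdhc, a membrane anchor, was at 99.9, 92.5, 89.3 and 90.3 CPM, with no overlap and a log2 fold change of −0.10 (SE 0.11), or −0.04 without WT replicate 1 and −0.16 without WT replicate 2. Sdha, the flavoprotein that oxidises succinate, was at 230, 244, 224 and 224 CPM, lower in both. The other anchor, Sdhd, was at 89.5, 83.7, 76.7 and 91.8 CPM and overlapped, with PAD4-DN replicate 2 the highest library. On the TPM scale the median of complex II was −0.01.

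Complex III passes electrons from ubiquinol to cytochrome c. Its 6 nuclear genes were all below 0, with a median of −0.19, and 3 were lower in both PAD4-DN libraries (50%, beside 17.4% of all genes). Uqcrq, a small subunit that contacts cytochrome b, was at 23.9, 19.3, 17.0 and 14.0 CPM. The WT libraries were the 2 highest, and the log2 fold change of −0.48 (SE 0.19) was the furthest below 0 of the 55; its unadjusted p was 0.045 and its adjusted p 0.988 with edgeR. Without WT replicate 1 the log2 fold change was −0.32. Uqcrc1, a core subunit on the matrix side, was at 97.3, 113, 98.9 and 80.8 CPM, and the groups overlapped (log2 fold change −0.23, SE 0.15; −0.39 without PAD4-DN replicate 1, −0.12 without WT replicate 2, and −0.09 when PAD4-DN replicate 2 was left out). The other core subunit, Uqcrc2, was at 87.1, 88.0, 91.6 and 77.8 CPM and overlapped too. The Rieske iron-sulphur protein gene Uqcrfs1 (89.4, 80.9, 68.2 and 79.9 CPM) and the cytochrome c1 gene Cyc1 (44.5, 46.7, 43.2 and 37.5 CPM) were lower in both PAD4-DN libraries, Uqcrfs1 by little in replicate 2 and Cyc1 by little in replicate 1. The mitochondrial gene of the complex, mt-Cytb, which encodes cytochrome b, was at 9398, 11381, 8861 and 7979 CPM. Here both PAD4-DN libraries were below both WT libraries (log2 fold change −0.30, SE 0.15; −0.16 without WT replicate 2), and only 6.6% of its 31-base words occur in other transcripts, so nuclear copies bear little on it.

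Cycs, the electron carrier between complexes III and IV, was at 65.9, 75.9, 47.9 and 81.5 CPM. Its 2 PAD4-DN libraries were the lowest and the highest of the 4, and the log2 fold change was −0.13 (SE 0.26). Of the 31-base words of its main transcript 31.9% occur in 928 other genes.

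Complex IV, cytochrome c oxidase, reduces oxygen. Its nuclear genes showed the most regular order: 9 of 9 had a log2 fold change below 0, with a median of −0.16, and in 8 of 9 both PAD4-DN libraries were below both WT libraries, Cox7a2 being the exception, beside 17.4% of all genes. On the TPM scale this held for 5 of 9, beside 11.1% of all genes, with a median of −0.09 and again with all 9 below 0. Cox8a, a small subunit of the membrane part, was at 80.7, 71.6, 64.2 and 54.9 CPM (log2 fold change −0.36, SE 0.14; edgeR unadjusted p 0.046, adjusted p 0.988). Cox6a1, the broadly expressed form of a regulatory subunit, was at 41.6, 39.9, 34.0 and 31.8 CPM (−0.31, SE 0.12; edgeR unadjusted p 0.050, adjusted p 0.988). In both genes the libraries of each genotype kept apart, although the WT libraries of Cox8a differed by about as much from each other as from the nearest PAD4-DN library. Cox4i1, the largest nuclear subunit, was at 183, 158, 151 and 142 CPM, Cox5a at 50.7, 50.8, 48.3 and 43.5 CPM and Cox5b at 66.3, 59.2, 57.3 and 56.9 CPM. Cox7a2 was at 65.1, 54.3, 56.7 and 52.1 CPM, where PAD4-DN replicate 1 exceeded WT replicate 2. WT replicate 1 was the highest library for 8 of the 9 genes. The complex IV median per library, as log2 distance from the mean of the 4, was 0.18, 0.02, −0.06 and −0.12, and WT replicate 1 was also above the mean by 0.10 for all genes under 1000 bases. Without WT replicate 1 the complex IV median log2 fold change was −0.11, and without WT replicate 2 it was −0.26.

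The 3 mitochondrial genes of complex IV encode its catalytic core. mt-Co1 was at 35152, 36707, 31841 and 29964 CPM, the most abundant of all 55 genes (log2 fold change −0.22, SE 0.10). Both PAD4-DN libraries were the lowest, with and without the copy: with Gm29216 added the values were 36359, 37228, 32883 and 30004 CPM (−0.23). mt-Co2 was at 9494, 10664, 9075 and 9061 CPM (−0.15, SE 0.12; −0.07 without WT replicate 2 and −0.23 without WT replicate 1), also with both PAD4-DN libraries the lowest. Its copy Gm28661 was at 159, 166, 75.1 and 1973 CPM, far higher in PAD4-DN replicate 2 than elsewhere. Summed, mt-Co2 and its copy came to 9653, 10831, 9150 and 11034 CPM (−0.02), and the groups overlapped. mt-Co3 was at 6224, 7951, 6193 and 8127 CPM (0.01, SE 0.19), with each genotype holding 1 high and 1 low library. Its copy Gm28437 was at 2677, 2148, 2854 and 1195 CPM, and the sum of 8900, 10100, 9047 and 9321 CPM (−0.05) put both PAD4-DN libraries between the WT libraries.

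Complex V makes ATP. All 7 of its nuclear genes had a log2 fold change below 0, with a median of −0.05. In 3 both PAD4-DN libraries were below both WT libraries (42.9%, beside 17.4% of all genes). The median was 0.04 on the TPM scale and −0.12 without PAD4-DN replicate 2. Atp5f1b was at 1040, 1019, 874 and 895 CPM. The WT libraries lay close together and above both PAD4-DN libraries, and the log2 fold change was −0.22 (SE 0.13). The alpha subunit gene Atp5f1a was at 679, 655, 616 and 565 CPM, with the same order. The gamma subunit gene Atp5f1c, the rotating shaft, was at 248, 245, 219 and 265 CPM and the stator gene Atp5pb at 152, 165, 141 and 175 CPM. In both of these the PAD4-DN libraries were the lowest and the highest. Atp5mc1 was at 33.1, 34.1, 31.5 and 24.1 CPM (−0.28, SE 0.17), lower in both PAD4-DN libraries, mostly through replicate 2: the log2 fold change was −0.10 without that library and −0.49 without PAD4-DN replicate 1; 67.3% of its 31-base words occur in other transcripts, the most abundant of which had a mean of 0.367 TPM. Atp5mc3, which gives most of the c subunit, was at 121, 117, 114 and 117 CPM and overlapped.

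mt-Atp6, the channel subunit of complex V, was at 4749, 5865, 4019 and 4449 CPM (log2 fold change −0.33, SE 0.15; −0.17 without WT replicate 2). Both PAD4-DN libraries were below both WT libraries. Its identical copy Gm10925 took 45.4%, 41.0%, 51.1% and 55.6% of the counts of the pair, a larger share in both PAD4-DN libraries. The sum was 8698, 9939, 8225 and 10022 CPM (−0.03), with PAD4-DN replicate 1 the lowest and PAD4-DN replicate 2 the highest. Because the copy has no base that differs, reads of the gene and of the copy cannot be told apart by sequence within it, and the order seen for mt-Atp6 alone rests on how kallisto divided them.

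**Figure D3:**
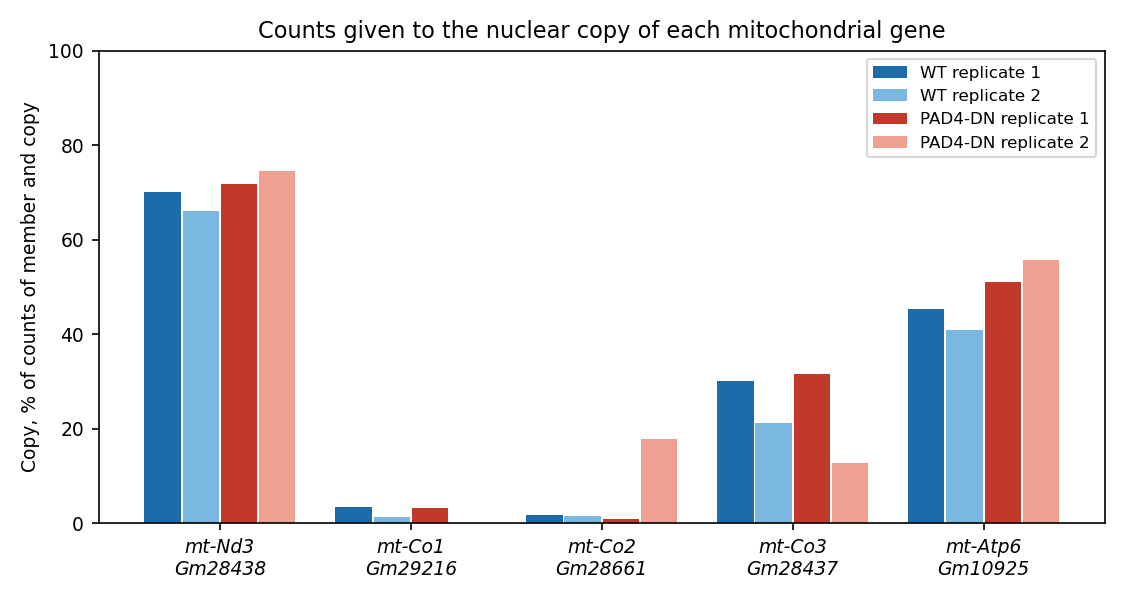
Share of the counts of a mitochondrial gene and its near-identical nuclear copy that was given to the copy, in percent, for the 5 pairs in which it exceeded 1% in any library; each bar is 1 library. PAD4-DN replicate 2 has the highest share for mt-Co2 (17.9%) and the lowest for mt-Co1 (0.138%) and mt-Co3 (12.8%).

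The same division touched mt-Nd3, where the copy took 70.1%, 66.1%, 71.8% and 74.6% of the counts. With the copy added mt-Nd3 was at 352, 565, 463 and 472 CPM, and the log2 fold change went from −0.25 to 0.03. For mt-Co1 the copy took 3.33%, 1.39%, 3.17% and 0.138%, and for mt-Co2 1.65%, 1.54%, 0.821% and 17.9%. For mt-Co3 it took 30.1%, 21.3%, 31.5% and 12.8%. The copy of mt-Nd4l was listed at 0 counts in every library, and that of mt-Nd4 at 0 in 3 libraries and at 103 counts in PAD4-DN replicate 2. With all copies added, the median log2 fold change of the 13 mitochondrial genes was −0.05 in place of −0.14, and 2 genes (mt-Cytb and mt-Co1) in place of 4 were lower in both PAD4-DN libraries, beside 17.4% of all genes. Both PAD4-DN libraries then lay between the WT libraries for 8 of the 13. On the TPM scale, without the copies, 1 of the 13 was lower in both PAD4-DN libraries (7.69%, beside 11.1% of all genes) and the median was −0.05.

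**Figure D4:**
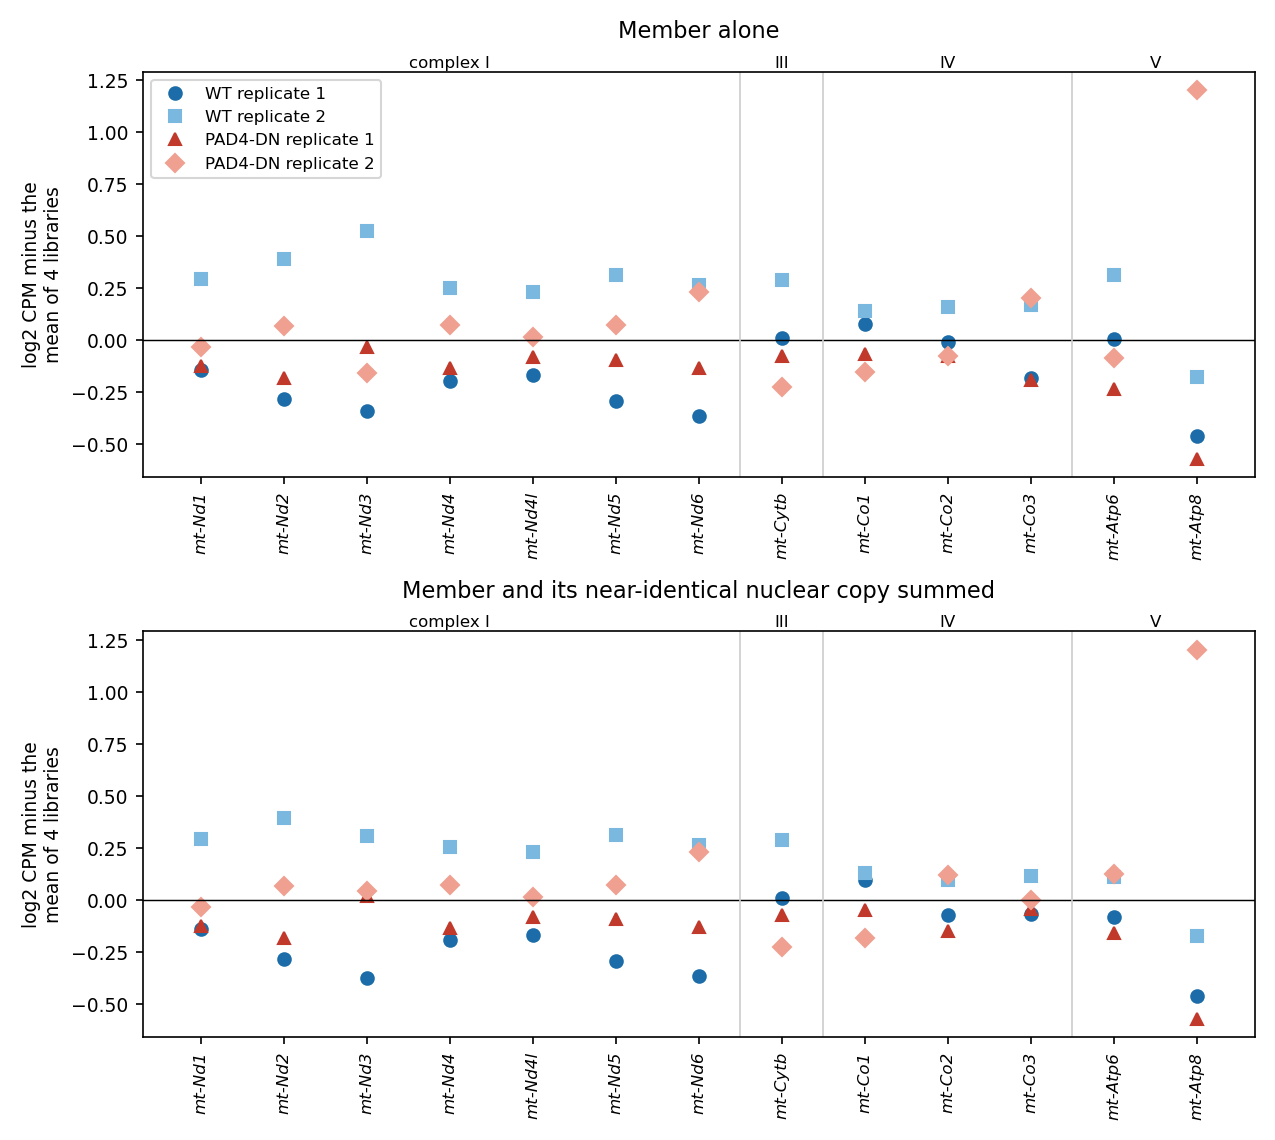
Log2 CPM of the 13 mitochondrial genes minus the mean of the 4 libraries, for each gene alone (top) and with the counts of its near-identical nuclear copy added (bottom); each symbol is 1 library. In the 7 complex I genes WT replicate 1 is the lowest and WT replicate 2 the highest in both panels, and mt-Atp6 and mt-Co2 no longer separate the genotypes in the lower panel.

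mt-Atp8, an accessory subunit of complex V, was at 345, 421, 320 and 1092 CPM. PAD4-DN replicate 2 was the only high library, and PAD4-DN replicate 1 was the lowest, so the groups overlapped; the log2 fold change was 0.88 (SE 0.55) with all libraries and −0.26 without PAD4-DN replicate 2. For every 100 counts of mt-Atp6 there were 7.27, 7.17, 7.96 and 24.6 counts of mt-Atp8, and for every 100 counts of mt-Atp6 and its copy together 3.97, 4.23, 3.89 and 10.9. Both genes lie on one bicistronic mRNA and share the 43 bases printed above. The effective length that the authors' tables give mt-Atp8 was 49.5, 45.1, 48.3 and 53.2 bases, and its TPM was 9162, 12691, 9339 and 28673. The part of read assignment in the high value was not tested.

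Seen within the organelle, mt-Co1 made up 44.1%, 39.3%, 42.1% and 38.4% of the counts of the 13 genes, and complex IV as a whole 63.8%, 59.2%, 62.3% and 60.5%. Complex I made up 17.99%, 21.9%, 20.2% and 22.2%. In each of these the libraries of the genotypes overlapped. Shares in this paragraph leave out the nuclear copies. Those copies held 9.37%, 7.23%, 10.1% and 10.5% of the counts of mitochondrial genes and copies together. mt-Cytb made up 11.8%, 12.2%, 11.7% and 10.2% and mt-Atp6, counted without its copy, 5.96%, 6.27%, 5.32% and 5.71%, both lower in both PAD4-DN libraries, mt-Cytb by little in replicate 1.

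The 13 mitochondrial genes held 7.74%, 9.30%, 7.73% and 7.70% of all counts. Both PAD4-DN libraries were the lowest, but WT replicate 1 was close to them, and the difference of the means, −0.807 percentage points, gave p = 0.33 in an exact two-sided permutation test (n = 2 and 2), the smallest p this design allows. Without WT replicate 2 the difference was −0.027. With the 7 copies added the shares were 8.54%, 10.03%, 8.60% and 8.61%, WT replicate 1 was the lowest library, and the exact permutation p was 1.0. As a share of TPM the 13 genes held 14.2%, 18.3%, 14.9% and 17.3%, so both PAD4-DN libraries lay between the WT libraries, and the difference was −0.146 percentage points (exact two-sided permutation p = 1.0, n = 2 and 2). The 42 nuclear genes held 0.453%, 0.456%, 0.425% and 0.412% of counts, with the WT libraries close together and above both PAD4-DN libraries (difference −0.036 percentage points, exact two-sided permutation p = 0.33, n = 2 and 2).

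The summed TPM of the mitochondrial genes was 19.6, 24.7, 21.0 and 25.3 times that of the nuclear genes. Each genotype held 1 low and 1 high library, and the mean log2 ratio differed by 0.07 (exact two-sided permutation p = 0.667, n = 2 and 2). Without mt-Atp8 the difference was −0.01, and without PAD4-DN replicate 2 it was −0.06. By complex, the mean TPM of a mitochondrial gene over that of a nuclear gene was 45.5, 64.1, 50.3 and 60.5 for complex I, 118, 144, 128 and 115 for complex III, 93.9, 115, 102 and 113 for complex IV, and 34.6, 45.2, 34.7 and 65.9 for complex V, the last with mt-Atp8 included. These ratios by complex leave out the nuclear copies, and that of mt-Atp6 took 41.0% to 55.6% of the counts of its pair. With the copies, the ratios of complexes I, IV and V would be higher. The ratio over all genes differed more between the libraries of each genotype than between the genotype means.

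Genes that work with the chain were taken from lists of subunits and partners outside the 55. None of the genes in these lists was called by edgeR. Over all genes tested, 48.5% had a log2 fold change below 0, 17.4% were lower in both PAD4-DN libraries and 15.4% higher in both. Of 38 further subunits tested, 33 were below 0 (86.8%, median −0.16) and 18 were lower in both PAD4-DN libraries (47.4%), with 0 higher in both. Among them Cox7c, a small subunit of complex IV, was at 79.5, 73.6, 63.0 and 67.8 CPM. Of 78 mitochondrial ribosomal protein genes, 70 were below 0 (89.7%, median −0.14), 35 were lower in both PAD4-DN libraries (44.9%) and 3 higher in both. Mrpl38 was at 42.9, 41.1, 31.1 and 29.4 CPM, with an unadjusted p of 0.00983 and an adjusted p of 0.988 by edgeR. Of 16 citric acid cycle genes, 13 were below 0 (81.2%, median −0.18) and 10 were lower in both PAD4-DN libraries (62.5%), with 0 higher in both. The medians of these 3 lists were as far below 0 as that of the nuclear respiratory chain genes. The 46 assembly factors tested, which build the complexes and remain outside them, had a median of −0.05, with 29 below 0, 9 lower in both PAD4-DN libraries (19.6%) and 2 higher in both, a share near the 17.4% of all genes.

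The 7 regulators of the nuclear genes that could be tested had a median of −0.01, with 4 below 0 and 3 above. In 2 both PAD4-DN libraries were above both WT libraries, beside 15.4% of all genes. In 0 both were below, beside 17.4%. Nrf1, whose product binds many respiratory chain promoters, was at 30.6, 28.7, 29.1 and 26.3 CPM, where the genotypes overlapped. At 20.4, 20.2, 21.5 and 21.1 TPM, both PAD4-DN libraries were above both WT libraries, beside 22.3% of all genes on the TPM scale. Gabpa, the DNA-binding part of the ETS factor GABP, was at 85.7, 89.8, 93.6 and 108 CPM, higher in both PAD4-DN libraries (edgeR adjusted p = 0.988). Yy1 was at 132, 141, 145 and 159 CPM, likewise higher in both (edgeR adjusted p = 0.988). Ppargc1a, the coactivator PGC-1alpha, did not exceed 0.109 TPM in any library.

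**Figure D5:**
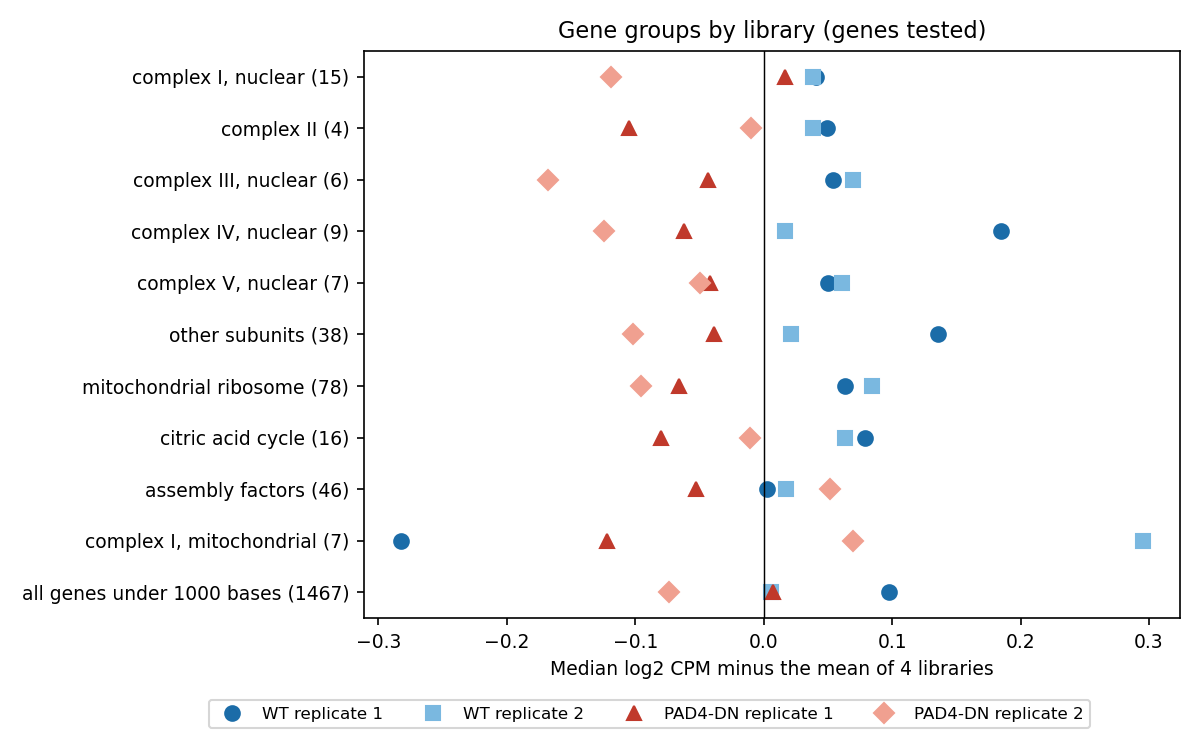
Median log2 CPM of each gene group minus the mean of the 4 libraries, with the number of genes tested in brackets; each symbol is 1 library. For the nuclear genes of complexes I to V both PAD4-DN medians are below both WT medians, whereas in the mitochondrial genes of complex I both lie between the WT medians.

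The promoters of the nuclear genes were read for the NRF1 motif because many of these genes lay on the same side of WT. RefSeq (GRCm38.p6) gave a promoter for 32 of the 42. In the 250 bases before the start, the NRF1 consensus (GCGCA, any 1 base, then GCGC) was found on either strand in 6 of 32 (18.8%): Atp5f1c, Cox6a1, Ndufa5, Ndufa8, Sdha and Sdhd, compared with 1144 of 27025 genes (4.23%). The ETS motif CCGGAAGT on either strand was found in 0 of 32, compared with 3.23% of genes, which says only that these letters are not in the window. Of the 6 genes with the NRF1 motif, Cox6a1, Ndufa5 and Sdha were lower in both PAD4-DN libraries, beside 54.8% of the 42 nuclear genes. Atp5f1c, Ndufa8 and Sdhd overlapped. A link between motif and order was not tested. Ndufa5, an accessory subunit of complex I, was at 18.3, 17.7, 15.3 and 14.7 CPM and Ndufa8 at 46.2, 44.9, 45.0 and 41.5 CPM. The promoter of Cox6a1, on the minus strand at chr5:115348959-115349208, is shown with its 2 matches in capitals, and the parts of the Sdha promoter around its 3 matches (chr13:74350314-74350353, chr13:74350271-74350310 and chr13:74350241-74350265, minus strand) follow. A match describes the letters and is no evidence of binding.
Cox6a1: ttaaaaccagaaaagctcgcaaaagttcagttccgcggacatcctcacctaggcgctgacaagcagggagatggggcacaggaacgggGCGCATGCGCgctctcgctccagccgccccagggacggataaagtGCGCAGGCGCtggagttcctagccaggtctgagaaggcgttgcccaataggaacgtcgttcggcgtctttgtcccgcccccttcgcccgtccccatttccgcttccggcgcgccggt
Sdha, first match: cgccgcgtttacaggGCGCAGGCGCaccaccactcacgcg
Sdha, second match: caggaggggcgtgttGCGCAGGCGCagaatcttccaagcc
Sdha, last match: cccgcgcgactcggtGCGCAAGCGC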

How the data were processed

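Per the labels' protocols, poly-A libraries were strand-specific and made from 100 ng of total RNA with 13 PCR cycles, sequenced from one end for 75 cycles. Kallisto and the build GRCm39 are named per the submitters' processing notes, while version, annotation release and strand setting were not given in the sources used here. Each deposited table lists 117486 transcripts. Per the file headers, its values are estimated counts, which are not normalized, and TPM. The deposited TPM take effective length into account and total 1000000 per library.

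Identifiers were matched without version to GENCODE M21 names (116408 matched; the other 1078 held under 0.5% of counts and were left out). Estimated counts and TPM were summed per gene, and estimated counts were rounded. The genotypes were compared with edgeR 4.0.16 in R 4.3.3 (TMM, filterByExpr, quasi-likelihood test, Benjamini-Hochberg adjustment over 13718 genes, threshold 0.05). CPM are TMM-scaled. The procedure was tested on 3 simulated sets of 13718 genes. It called 2.67% of 150 genes changed 1.5-fold, 29.3% of 150 changed 2-fold and 66.7% of 150 changed 4-fold. Of 40554 unchanged genes, 57 were called (0.141%), beside 4, 44, 94 and 100 of the genes changed 1.5-fold, 2-fold, 3-fold and 4-fold. False calls made up a larger part of all calls than the threshold of 0.05 aims at. Small changes would mostly go uncalled. Alternatives were DESeq2 1.42.0, limma-voom (limma 3.58.1), DESeq2 size factors, scaling from nuclear genes, 2 other low-count filters, limma-trend on log2(TPM + 1) and log2(TPM + 0.1) with a mean of at least 1 TPM, effective length offsets, the most abundant transcript only, a false discovery rate of 0.1, a replicate block and each library left out in turn; the crossed block, the sums with nuclear copies and leaving out mt-Atp8 were chosen after seeing the data. Shared sequence was counted as 31-base words of the main transcript of each gene. Log2 fold changes are printed for the mitochondrial genes, Cycs and the 2 genes of smallest p in the nuclear part of each complex; of other lists the 2 of smallest p could be named, and Nrf1, Ppargc1a, the tissue isoforms and the markers are given as levels. The genes and lists were chosen with earlier results of these data known, so their direction is not independent evidence. With 2 libraries a group precision is low, and without molecular identifiers PCR duplicates cannot be removed, so counts overstate the molecules read.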

Additional observations from a re-analysis of the deposited data

How the results depend on the processing

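No respiratory chain gene was called under any alternative run. The number of genes called over the whole table was 0 with edgeR, 11 with DESeq2, 10 with no low-count filter and 0 to 2 with a library left out. With a replicate block 0 genes and 0 respiratory chain genes were called and the nuclear median was −0.13; same-numbered libraries did not deviate together (correlation −0.34). With the numbers crossed, 0 genes were called. On TPM with either pseudocount 17 of the 55 genes in place of 28 did not overlap (30.9%, beside 33.4% of all genes); medians with pseudocounts of 1 and 0.1 were −0.0618 and −0.0623 for nuclear genes, −0.0352 and −0.0358 for complex I, −0.0086 and −0.0087 for complex II, −0.1121 and −0.1131 for complex III, −0.0886 and −0.0894 for complex IV, −0.0529 with both for mitochondrial genes, and 0.0373 and 0.0374 for complex V, beside 0.0629 and 0.0673 for all genes. Complex V was −0.0393 with DESeq2 or its size factors, −0.0588 without the filter, −0.0263 at a mean of 5 CPM and −0.0383 with effective length offsets. With a library left out, 40 to 45 of the 55 did not overlap (72.7% to 81.8%, beside 60.4% to 72.3% of all genes), and medians ran from −0.186 to −0.1086 for nuclear genes, −0.2803 to 0.1641 for mitochondrial genes (the latter without WT replicate 2), −0.2186 to −0.06 for complex I (the former without PAD4-DN replicate 1), −0.1474 to −0.0831 for complex II, −0.2347 to −0.1314 for complex III, −0.2624 to −0.1073 for complex IV and −0.1186 to −0.0672 for complex V. The log2 mitochondrial to nuclear ratio differed by −0.0182 in CPM, by −0.00679 without mt-Atp8 and by −0.0972 (without WT replicate 1) to 0.238 (without WT replicate 2) with a library left out. Of 24 genes with a printed fold change, 14 kept their sign under every alternative, although leaving out 1 library moved 9 of these by over 1.5 times (values beside each gene). On TPM the sign turned for mt-Nd4 (0.0164), mt-Nd5 (0.0539) and, with a pseudocount of 1, Cycs (0.0003); with copies added it turned for mt-Nd3 (0.0272) and mt-Co3 (−0.0488). With a library left out the ranges that crossed 0 were −0.3719 to 0.0611 for mt-Nd1, −0.4427 to 0.2299 for mt-Nd2, −0.6163 to 0.2442 for mt-Nd3, −0.2803 to 0.1641 for mt-Nd4, −0.2619 to 0.1314 for mt-Nd4l, −0.3231 to 0.2829 for mt-Nd5, −0.2018 to 0.424 for mt-Nd6, −0.1991 to 0.1993 for mt-Co3, −0.2644 to 1.5037 for mt-Atp8 and −0.5721 to 0.1917 for Cycs. The cause of these shifts was not tested; a group left with 1 library was assumed to vary like the other.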
